A study of Mus musculus with 6 samples.

Results

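The study measured RNA in mouse myeloid-derived suppressor cells (MDSCs) given mitochondrial DNA (mtDNA), and 10 enzyme and transporter genes of arginine, nitric oxide, prostaglandin and itaconate metabolism are described here. The genes were Slc7a2, Ass1, Arg1, Arg2, Nos2, Gch1, Ptgs1, Ptgs2, Ptges and Acod1. They were taken by symbol from the deposited count table, which gave 10 rows of 55359. MDSCs are immature myeloid cells that dampen T cell responses, and here they were grown from C57BL/6 bone marrow with GM-CSF and IL-6 (40 ng/ml each) over 4 days, after which the polymorphonuclear fraction was isolated with a kit. The mtDNA group was transfected with mtDNA at 250 ng/ml using Lipofectamine 2000 and the blank group was not given mtDNA. RNA was taken 12 h later, and each group had 3 libraries. Whether blank cells received the lipid reagent, and whether libraries came from separate mice or cultures, is not given in the labels. Effects of mtDNA and of the reagent therefore cannot be told apart. The p-values set the group difference against how much these 6 libraries vary within their groups, which may be technical variation only.

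Arginine is the shared substrate of competing enzyme families. Arginases split it to ornithine and urea, nitric oxide synthases turn it into nitric oxide and citrulline, and argininosuccinate synthase starts the return of citrulline to arginine. Cyclooxygenases open the route from arachidonic acid to prostaglandins, and Acod1 diverts cis-aconitate from the tricarboxylic acid cycle to itaconate. All of these pathways are known as effector systems of MDSCs and activated macrophages.

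Library totals were 4144481, 4848705 and 4911103 counts for mtDNA 1, 2 and 3, and 4111620, 4796800 and 4018360 for blank 1, 2 and 3. Markers of several myeloid types were present. Among 13 neutrophil markers 1 was higher and 0 lower in mtDNA cells (7.69% higher, against 11.9% of all tested genes). Their summed level was 8260 to 8890 CPM in mtDNA and 7930 to 8340 CPM in blank libraries. Ly6g, the surface marker that defines polymorphonuclear MDSCs, was low at 5.81 ± 1.14 CPM in mtDNA and 4.87 ± 0.95 CPM in blank cells (SD, n = 3 each; CPM, read counts scaled to the size of each library). Retnlg of the same list was also low, at 2.96 ± 0.93 CPM in mtDNA and 3.45 ± 0.40 CPM in blank cells. Other neutrophil markers were far higher. Mmp8 had 2560 ± 52.4 CPM in mtDNA and 2550 ± 17.5 CPM in blank cells, and S100a8 had 1770 ± 123 CPM in mtDNA and 1700 ± 65.3 CPM in blank cells. The monocyte receptor gene Csf1r stood at 1550 ± 3.52 CPM in mtDNA and 1420 ± 16 CPM in blank cells (SD, n = 3 each), and larger differences were in Fcgr1 (327 ± 41.8 CPM in mtDNA and 56.4 ± 12.2 CPM in blank cells), Ly6c2 (968 ± 73.8 CPM in mtDNA and 538 ± 21 CPM in blank cells) and Mertk (64.1 ± 3.12 CPM in mtDNA and 30.6 ± 2.42 CPM in blank cells). Of 13 monocyte and macrophage markers 7 were higher in mtDNA cells and 0 lower (53.8% higher, against 11.9% of all tested genes). The other 6 were not called, among them Marco (log2 -0.31), Cx3cr1 (-0.08), Mrc1 (0.045), Adgre1 (0.09) and C1qa (0.12). None of the 13 was at 0 reads. The summed level of the 13 was 4910 to 5210 CPM in mtDNA against 3940 to 4030 CPM in blank libraries. The part of this shift in the results below was not tested, and in bulk RNA a change in the number of cells of a type and a change of RNA per cell cannot be told apart.

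Of the 10 genes, 9 had enough reads to be tested, 6 were higher in mtDNA cells, 1 was lower and 2 were not called (edgeR adjusted p under 0.05, adjusted over all 11190 tested genes). The background of such calls was 11.9% of all tested genes higher and 5.98% lower. In 6 of the 9 every mtDNA library lay above every blank library, and in 1 every mtDNA library lay below, where 17.9% and 15.6% of all tested genes were separated in these ways. Nos2 reached the expression filter through its mtDNA libraries alone, so it had to differ to be tested, and its place in these counts is no support for them. The median log2 fold change was 0.58 over the 9 genes and -0.01 over all tested genes.

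**Figure D1:**
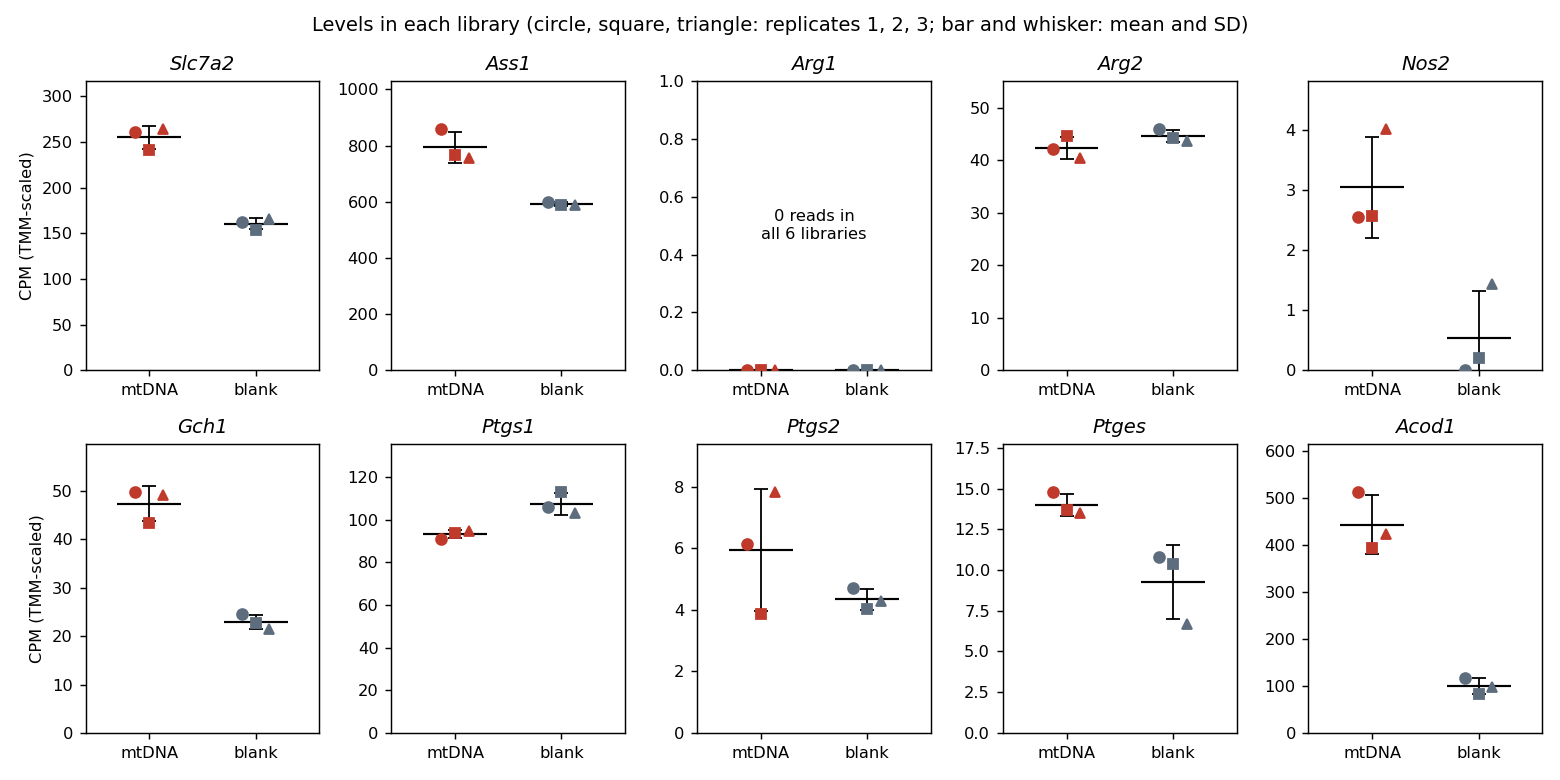
CPM of each gene in every library (vertical axes from 0, scaled per gene), mtDNA left of blank, with the group mean and SD. Slc7a2, Ass1, Nos2, Gch1, Ptges and Acod1 lie higher in all 3 mtDNA libraries than in any blank library, Ptgs1 lies lower, Arg2 and Ptgs2 overlap and Arg1 has 0 reads throughout.

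Sequences upstream of 4 of these genes are shown because they cover the largest rise among well-counted genes (Acod1), the rise of the cofactor enzyme (Gch1) and the 2 cyclooxygenase genes (Ptgs1 and Ptgs2). Promoters came from the RefSeq table of build GRCm38.p6, which held 6 of the 10 genes. Each window covers the 250 bases before the annotated start and reads 5′ to 3′ along the gene. Acod1 lies at chr14:103046762-103047011 on the plus strand, Gch1 at chr14:47189414-47189663 on the minus strand, Ptgs1 at chr2:36230176-36230425 and Ptgs2 at chr1:150099781-150100030, both on the plus strand. Capitals mark matches, on either strand, to the letters of 6 motifs chosen with these windows in view: IRF (AANNGAAA), GAS (TTCNNNGAA), NF-kB (GGNNNTTCC), C/EBP (TTNNGNAA), AP-1 and TATA. The AP-1 letters were TGANTCA. The TATA box was searched as TATAAA.
Acod1: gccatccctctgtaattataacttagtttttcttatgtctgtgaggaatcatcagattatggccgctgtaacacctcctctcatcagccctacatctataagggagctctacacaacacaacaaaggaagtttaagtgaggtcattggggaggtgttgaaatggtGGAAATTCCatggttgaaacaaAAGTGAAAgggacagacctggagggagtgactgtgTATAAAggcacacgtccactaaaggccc
Gch1: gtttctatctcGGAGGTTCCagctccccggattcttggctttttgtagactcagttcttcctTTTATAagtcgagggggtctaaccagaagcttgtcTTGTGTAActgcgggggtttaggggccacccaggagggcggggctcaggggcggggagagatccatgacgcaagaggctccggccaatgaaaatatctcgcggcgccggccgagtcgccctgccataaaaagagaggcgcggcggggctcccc
Ptgs1: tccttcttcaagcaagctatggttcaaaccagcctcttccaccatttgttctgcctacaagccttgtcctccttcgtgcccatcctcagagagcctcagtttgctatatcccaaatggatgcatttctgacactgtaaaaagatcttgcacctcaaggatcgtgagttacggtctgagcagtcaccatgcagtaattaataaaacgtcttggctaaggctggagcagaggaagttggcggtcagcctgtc
Ptgs2: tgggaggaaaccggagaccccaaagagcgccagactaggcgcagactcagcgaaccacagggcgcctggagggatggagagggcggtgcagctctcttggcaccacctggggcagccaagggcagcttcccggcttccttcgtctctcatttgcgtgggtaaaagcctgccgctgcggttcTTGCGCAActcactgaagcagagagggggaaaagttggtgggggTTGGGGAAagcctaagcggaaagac

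The Acod1 window held an NF-kB match (GGAAATTCC) whose first base is at -85, an IRF match (AAGTGAAA) at -63 and a TATA match at -28, counted from the start. Among all 32851 promoter windows of this length, 15.7% held the NF-kB letters, 21.3% the IRF letters and 12.4% the TATA letters. The Gch1 window held an NF-kB match (GGAGGTTCC) at -239, a TATA match at -188 and a C/EBP match (TTGTGTAA) at -153. The Ptgs2 window had C/EBP matches at -69 and -25, letters found in 36.8% of all windows. The Ptgs1 window had no match to any of the 6. GAS and AP-1 letters, found in 7.02% and 6.75% of windows, were in none of the 4. The matches overlapped in no case, and a match is a run of letters, not a shown binding site. Windows of Ass1 and Ptges, both called higher in mtDNA cells, were searched too and are not printed. The Ass1 window had no match to any of the 6, and the Ptges window had only a C/EBP match (TTTCAAAA) at -198. Whether matches go with the changes in RNA was not tested.

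Acod1 (ENSMUSG00000022126), the enzyme that makes itaconate, had the largest change among the genes with over 20 CPM. It stood at 512, 392 and 423 CPM in the mtDNA libraries, against 117, 83.4 and 96.9 CPM in the blank libraries. The lowest mtDNA library was more than 3 times the highest blank library. Acod1 rose 4.47-fold (95% interval 3.89 to 5.14; log2 2.16 ± 0.097 SE, edgeR adjusted p = 1.09e-13), and its log2 fold change ranked 100 of the 11190 tested genes from the top. None of its 2549 read-length windows occurs in a transcript of another gene.

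Nos2 (ENSMUSG00000020826), the inducible nitric oxide synthase, was at the edge of detection. It had 10, 12 and 19 reads in the mtDNA libraries and 0, 1 and 6 reads in the blank libraries, which is 2.56, 2.57 and 4.02 CPM in mtDNA against 0, 0.2 and 1.43 CPM in blank cells. The groups did not overlap, and the fold change was 5.65 with a wide interval of 2.45 to 13 (edgeR adjusted p = 0.0037). All 3 mtDNA libraries and 0 blank libraries reached the 2.24 CPM that the filter asked for, so Nos2 was tested only because it was high in mtDNA cells, and these values are a description. Without blank 3 the log2 fold change was 4.51 against 2.50 with all libraries, and the blank group then held 1 read.

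Gch1 (ENSMUSG00000037580), the GTP cyclohydrolase that starts synthesis of tetrahydrobiopterin, the cofactor of nitric oxide synthases, rose in mtDNA cells. It had 49.8, 43.3 and 49.1 CPM in the mtDNA libraries, against 24.5, 22.8 and 21.5 CPM in the blank libraries. The groups were far apart relative to their spread, and the rise was 2.06-fold (95% interval 1.78 to 2.39; log2 1.04 ± 0.10 SE, edgeR adjusted p = 7.29e-08). The other listed genes of cofactor synthesis and recycling that were tested did not pass. Pcbd1, with 0 reads in mtDNA and 2 in blank libraries, was below the filter and was not tested. Gchfr, which encodes the feedback regulator of Gch1, had 3.04 ± 0.89 CPM in mtDNA and 4.64 ± 0.49 CPM in blank cells (SD, n = 3 each; edgeR adjusted p = 0.182), and Pts and Spr, which complete tetrahydrobiopterin, had log2 fold changes of -0.04 ± 0.085 and -0.30 ± 0.11 (SE; edgeR adjusted p = 0.808 and 0.0714).

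Slc7a2 (ENSMUSG00000031596), the cationic amino acid transporter that brings arginine into macrophages, had 261, 241 and 264 CPM in the mtDNA libraries, against 162, 154 and 166 CPM in the blank libraries. It rose 1.59-fold (95% interval 1.46 to 1.72; log2 0.67 ± 0.058 SE, edgeR adjusted p = 8.52e-09). Its relative Slc7a1, the broadly used carrier of cationic amino acids, went the other way. Slc7a1 had 34.8 ± 3.09 CPM in mtDNA and 44.7 ± 1.90 CPM in blank cells (SD, n = 3 each) and its log2 fold change was -0.35 (edgeR adjusted p = 0.0116), a call that ended without mtDNA 1 (0.0545) and in DESeq2 (0.122).

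Ass1 (ENSMUSG00000076441), the argininosuccinate synthase that recycles citrulline, had the highest level per exon length of the 10 genes. It had 858, 765 and 757 CPM in the mtDNA libraries, against 600, 587 and 588 CPM in the blank libraries. It rose 1.34-fold (95% interval 1.24 to 1.44; log2 0.42 ± 0.052 SE, edgeR adjusted p = 1.94e-06). The next enzyme of the cycle, Asl, had 49.6 ± 2.56 CPM in mtDNA and 50.6 ± 6.52 CPM in blank cells (SD, n = 3 each; edgeR adjusted p = 0.847). Of the Ass1 read-length windows 32.6% also occur in the pseudogene Gm5424, so the exact count of Ass1 is uncertain. Gm5424 itself had 42, 51 and 51 reads in mtDNA libraries and 28, 35 and 34 in blank libraries, far fewer than the 3358, 3570 and 3575 of Ass1 in mtDNA and 2547, 2929 and 2463 in blank libraries.

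Neither arginase gene was called. Arg1 (ENSMUSG00000019987), the cytosolic arginase used as a marker of suppressive myeloid cells, had 0 reads in all 6 libraries. A count of 0 allows up to 3 counts in that library. By library totals alone this is 0.611 to 0.724 CPM in mtDNA libraries and 0.625 to 0.747 CPM in blank libraries. These limits hold for each library on its own and are not limits on a group difference. Arg1 was below the expression filter, so no difference was tested and a small one could not have been detected. None of its 2158 read-length windows is shared with another gene. Arg2 (ENSMUSG00000021125), the mitochondrial arginase, had 42.2, 44.6 and 40.4 CPM in mtDNA libraries, against 45.9, 44.3 and 43.7 CPM in blank libraries. The groups overlapped, and the fold change of 0.95 had a 95% interval of 0.838 to 1.08 (edgeR adjusted p = 0.624). The end of Arg2 overlaps Vti1b on the opposite strand, with 17.9% of its windows shared, and the strand setting of the counts is not given in the sources used here. Vti1b had log2 -0.02 ± 0.074 (SE; edgeR adjusted p = 0.899).

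Of the 2 cyclooxygenase genes Ptgs1 was called lower and Ptgs2 was not called, and the difference between their changes was not tested. Ptgs1 (ENSMUSG00000047250), the constitutive cyclooxygenase, had 91, 93.6 and 94.8 CPM in mtDNA libraries, against 106, 113 and 103 CPM in blank libraries. It fell to 0.866 of its blank level (95% interval 0.789 to 0.95; edgeR adjusted p = 0.028). DESeq2 did not call Ptgs1 (adjusted p = 0.207), nor did edgeR without mtDNA 1 (0.0722), mtDNA 2 (0.0696), mtDNA 3 (0.0527), blank 1 (0.0528) or blank 2 (0.131). Ptgs2 (ENSMUSG00000032487), the inducible cyclooxygenase, had 24, 18 and 37 reads in mtDNA libraries, against 20, 20 and 18 reads in blank libraries. The groups overlapped, and the interval of the fold change, 0.927 to 2.03, includes no change (edgeR adjusted p = 0.283). Per kilobase of exon Ptgs2 made up 5.41%, 3.38% and 6.55% of the 2 cyclooxygenases in mtDNA libraries and 3.62%, 2.93% and 3.41% in blank libraries, so that Ptgs1 carried most of their RNA in every library.

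Ptges (ENSMUSG00000050737), the inducible synthase that makes prostaglandin E2 from the product of the cyclooxygenases, had 14.8, 13.7 and 13.5 CPM in mtDNA libraries, against 10.8, 10.4 and 6.68 CPM in blank libraries. The blank 3 library was the lowest of the 6. Ptges rose 1.49-fold (95% interval 1.15 to 1.93; edgeR adjusted p = 0.0275), but the call ended in DESeq2 (adjusted p = 0.21), with library totals alone (0.0572) and without mtDNA 1 (0.0815), mtDNA 2 (0.0539) or blank 3 (0.144). The other prostaglandin E synthases, Ptges2 and Ptges3, had log2 -0.07 ± 0.14 and -0.11 ± 0.083 (SE; edgeR adjusted p = 0.799 and 0.408).

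**Figure D2:**
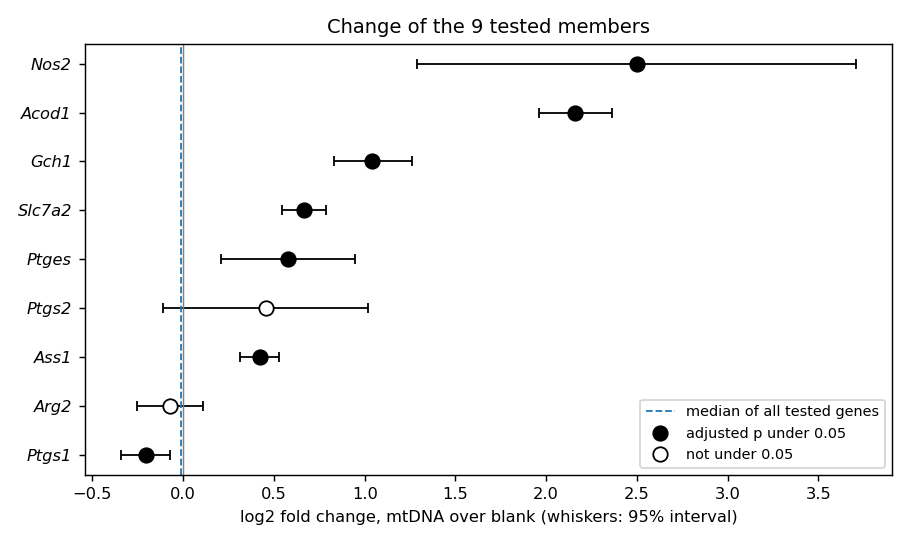
Log2 fold change of mtDNA over blank for the 9 tested genes with 95% intervals, filled where adjusted p is under 0.05, beside the median of all tested genes (dashed, -0.01). Nos2 (2.50) and Acod1 (2.16) lie farthest from 0, the interval of Nos2 is the widest, and those of Ptgs2 and Arg2 span 0.

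Levels can be set side by side only per length, as CPM per kilobase of exon (RPKM). In mtDNA cells Ass1 led with 329 ± 23.3 RPKM, before Acod1 with 169 ± 23.8, and in blank cells the order was the same with 245 ± 2.92 for Ass1 and 37.8 ± 6.50 for Acod1 (SD, n = 3 each). Arg2 followed with 29.7 ± 1.45 RPKM in mtDNA and 31.3 ± 0.80 in blank cells, and its libraries overlapped those of Slc7a2 in mtDNA cells and those of Acod1 in blank cells. Slc7a2 and Ptgs1 changed places: Slc7a2 had 27.9 ± 1.38 RPKM in mtDNA and 17.6 ± 0.67 in blank cells, and Ptgs1 had 24.0 ± 0.51 RPKM in mtDNA and 27.7 ± 1.21 in blank cells. Gch1 stood at 7.58 ± 0.58 RPKM in mtDNA and 3.67 ± 0.24 in blank cells, and Ptges at 3.57 ± 0.18 in mtDNA and 2.37 ± 0.58 in blank cells. Ptgs2 (1.30 ± 0.44 RPKM in mtDNA, 0.947 ± 0.077 in blank cells) and Nos2 (0.691 ± 0.19 in mtDNA, 0.123 ± 0.18 in blank cells) were lowest of the genes with reads, and their libraries overlapped in mtDNA cells. Exon lengths cover all annotated transcripts, from 1428 bases for Arg2 to 9135 for Slc7a2, so a gene that uses a short transcript is placed too low.

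**Figure D3:**
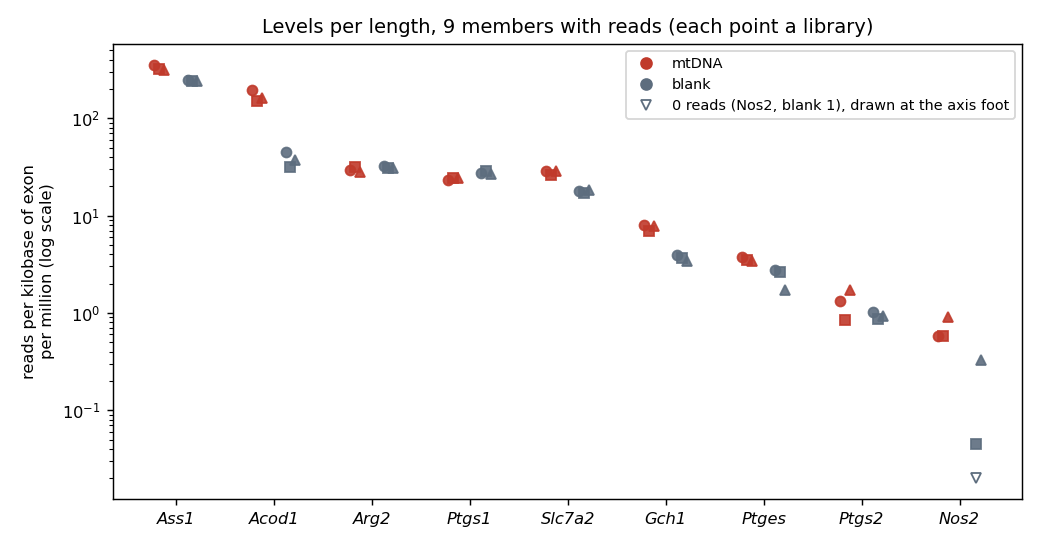
RPKM (log axis) of the 9 genes with reads, each point a library, mtDNA left of blank and replicates by symbol. Acod1 spans 149 to 195 in mtDNA and 31.8 to 44.7 in blank libraries, while Nos2 is under 1 in every library and at 0 reads in blank 1.

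Among 35 other genes of arginine, nitric oxide and tetrahydrobiopterin metabolism 26 were tested, 2 were higher and 3 lower. Their median log2 change was -0.07. The higher share was 7.69%, against 11.9% of all tested genes, of which 5.98% were lower. Sat1, which acetylates spermidine and spermine for breakdown, rose 1.33-fold (543 ± 33.4 CPM in mtDNA and 407 ± 10.1 in blank cells, SD, n = 3 each; edgeR adjusted p = 3.1e-06), and Slc3a2, the shared heavy chain of several amino acid transporters, rose 1.18-fold (edgeR adjusted p = 0.00272), a call that ended with library totals alone (0.0811). Beside Slc7a1, the lower genes were Srm, the spermidine synthase (log2 -0.53 ± 0.13 SE, edgeR adjusted p = 0.00424), and Prmt1, the main arginine methyltransferase (-0.27 ± 0.085, edgeR adjusted p = 0.0306). The call of Prmt1 ended in DESeq2 (0.233) and without mtDNA 1 (0.0641), mtDNA 3 (0.0927), blank 2 (0.053) or blank 3 (0.156). Odc1, which turns ornithine into putrescine, had 84.6 ± 5.02 CPM in mtDNA and 74.1 ± 3.76 CPM in blank cells (SD, n = 3 each; edgeR adjusted p = 0.073). The urea cycle genes Otc and Cps1 and the neuronal synthase gene Nos1 had 0 reads in all 6 libraries, and Nos3, the endothelial synthase, had 2 reads in mtDNA and 1 in blank libraries.

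Among 34 other prostanoid and leukotriene genes 25 were tested, 3 were higher and 2 lower, and their median log2 change was -0.01. The higher share was 12%, close to the 11.9% of all tested genes, of which 5.98% were lower. Hpgds, which makes prostaglandin D2, rose 1.36-fold (54.0 ± 3.03 CPM in mtDNA and 39.7 ± 1.77 in blank cells, SD, n = 3 each; edgeR adjusted p = 0.000692). Cysltr1, a receptor for cysteinyl leukotrienes, rose 1.49-fold (edgeR adjusted p = 0.00246). Pla2g7, a secreted phospholipase, rose 1.12-fold (edgeR adjusted p = 0.0201), a call that ended with upper-quartile factors (0.214), library totals alone (0.535) and without mtDNA 1 (0.0629), blank 2 (0.0852) or blank 3 (0.0713). Ptger3, a receptor for prostaglandin E2, had a log2 fold change of -0.62 (edgeR adjusted p = 0.0284), and this call ended in DESeq2 (0.21) and without mtDNA 1 (0.133), blank 1 (0.0811) or blank 3 (0.079). Alox5, the 5-lipoxygenase, fell by 0.17 (edgeR adjusted p = 0.0484) and kept its call without blank 1 alone among the 6 omissions (0.0521 without mtDNA 1, 0.115 without mtDNA 2, 0.158 without mtDNA 3, 0.209 without blank 2 and 0.0881 without blank 3), and did not pass in DESeq2 (0.222). Pla2g4a, which frees arachidonic acid, had 58.3 ± 4.27 CPM in mtDNA and 56.4 ± 4.50 CPM in blank cells (SD, n = 3 each; edgeR adjusted p = 0.726).

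Around Acod1, 32 genes of the tricarboxylic acid cycle and of itaconate handling were listed and 30 tested. None was higher and 4 were lower in edgeR, where 11.9% of all tested genes were higher and 5.98% lower. The median log2 change of the list was -0.01. At an unadjusted p under 0.05 in edgeR 0 were higher and 7 lower. DESeq2 called 0 higher and 0 lower, and limma-voom 0 higher and 4 lower. The 4 lower genes were Pdha1, a subunit of pyruvate dehydrogenase (log2 -0.24), Pcx, the pyruvate carboxylase (-0.53), Idh3a, a subunit of the NAD-dependent isocitrate dehydrogenase (-0.26), and Slc25a11, a mitochondrial carrier (-0.18), with edgeR adjusted p of 0.0214 to 0.0424. DESeq2 called none of these 4 genes (adjusted p between 0.122 and 0.269), and neither did edgeR without mtDNA 1 (0.057 to 0.0814). Pdha1 also lost its call without blank 3 (0.143), Pcx without mtDNA 3 (0.105) or blank 1 (0.133), Idh3a under every omission but that of mtDNA 3 (0.0661 to 0.115) and Slc25a11 under all 6 (0.0508 to 0.163). Clybl, an enzyme that takes part in itaconate breakdown, had 5.63 ± 0.29 CPM in mtDNA and 8.30 ± 1.69 CPM in blank cells (SD, n = 3 each; edgeR adjusted p = 0.0961), and the itaconate receptor gene Oxgr1 had 0 reads.

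**Figure D4:**
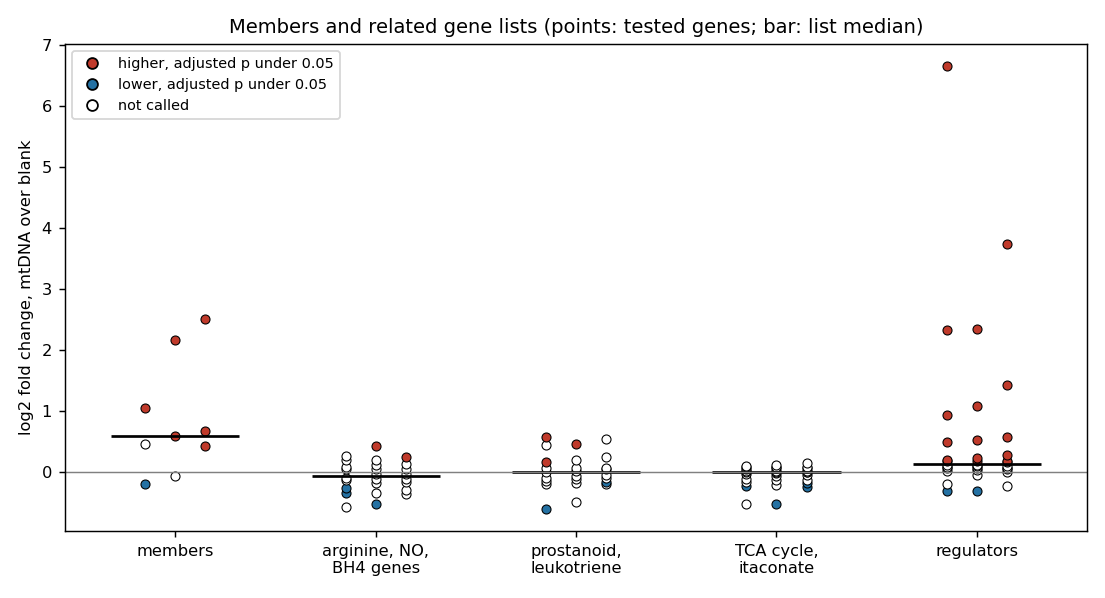
Log2 fold change of mtDNA over blank for the tested genes of the 10 and of 4 related lists, coloured by call, with each list's median. The median is 0.58 for the 9 tested genes, between -0.07 and -0.01 for the 3 pathway lists, and 0.13 for the regulators, among which Ifnb1, with 0 reads in blank libraries, lies highest.

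Of 38 transcription factor and signal genes known to act on these enzymes 34 were tested, 15 were higher and 2 lower. Their median log2 change was 0.13. The higher share was 44.1%, against 11.9% of all tested genes, of which 5.98% were lower. Irf1, a transcription factor needed for Nos2 induction in mouse macrophages, had 212 ± 7.42 CPM in mtDNA and 79.3 ± 5.02 CPM in blank cells (SD, n = 3 each; log2 1.42 ± 0.063 SE, edgeR adjusted p = 1.07e-13). Stat2, which carries interferon signals to the nucleus, rose by log2 2.32, and the interferon regulatory factor genes Irf7 and Irf9 by 3.72 and 1.07 (edgeR adjusted p at most 7.76e-08). Ifnb1, the gene of interferon beta, had 37 reads over the mtDNA libraries and 0 over the blank libraries, so its fitted fold change is no bound. Like Nos2, Ifnb1 reached the expression filter through its mtDNA libraries alone, so its place among the higher genes is no support for their count or share. The lower genes were Cebpa and Cebpd, each with log2 -0.32 (edgeR adjusted p = 0.0034 and 0.00724). Cebpb, a factor that drives Arg1, had 230 ± 34.4 CPM in mtDNA and 231 ± 28.7 CPM in blank cells (SD, n = 3 each; edgeR adjusted p = 0.991). Stat6, which carries IL-4 signals to Arg1, had log2 0.06 ± 0.049 (SE; edgeR adjusted p = 0.474), Ifng had 0 reads, and Il4 had 3 reads in mtDNA and 2 in blank libraries.

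The genes closest in pattern were sought for the 6 genes with a mean of at least 20 CPM, as the smallest root mean square difference of centred log2 CPM over the 6 libraries among 7086 candidates. For Acod1 they were Bst2 (difference 0.0692), Daxx (0.0739) and Lgals3bp (0.0802), with log2 fold changes of 2.04, 2.10 and 2.03. For Gch1 they were Maf (0.0464), Rasgef1b (0.0468) and Tmem184b (0.0524), and for Slc7a2 they were Csf1 (0.0291), Atf3 (0.0401) and Fam241a (0.0404). Ass1 lay closest to Tbrg1 (0.0172), Sat1 (0.0216) and Tmbim6 (0.024), Arg2 to Tmem94 (0.0121), Vsir (0.0203) and Hars (0.0236), and Ptgs1 to Phrf1 (0.0114), Tcp1 (0.0227) and Mmp9 (0.0247). A small difference here largely means a similar fold change, and near genes can be found among so many candidates. Whether these genes share regulation was not tested.

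Scaling between libraries set the size of small changes. With library totals alone 861 genes were higher and 2356 lower, against 1327 and 669 with the factors used here, and the median of all tested genes moved to log2 -0.13. Relative to that shift the directions of the 9 tested genes were the same, with Ass1 at log2 0.30, Slc7a2 at 0.55, Gch1 at 0.93, Acod1 at 2.04 and Ptgs1 at -0.33. The rises of Acod1, Gch1, Slc7a2 and Ass1 passed under all 14 alternatives.

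**Figure D5:**
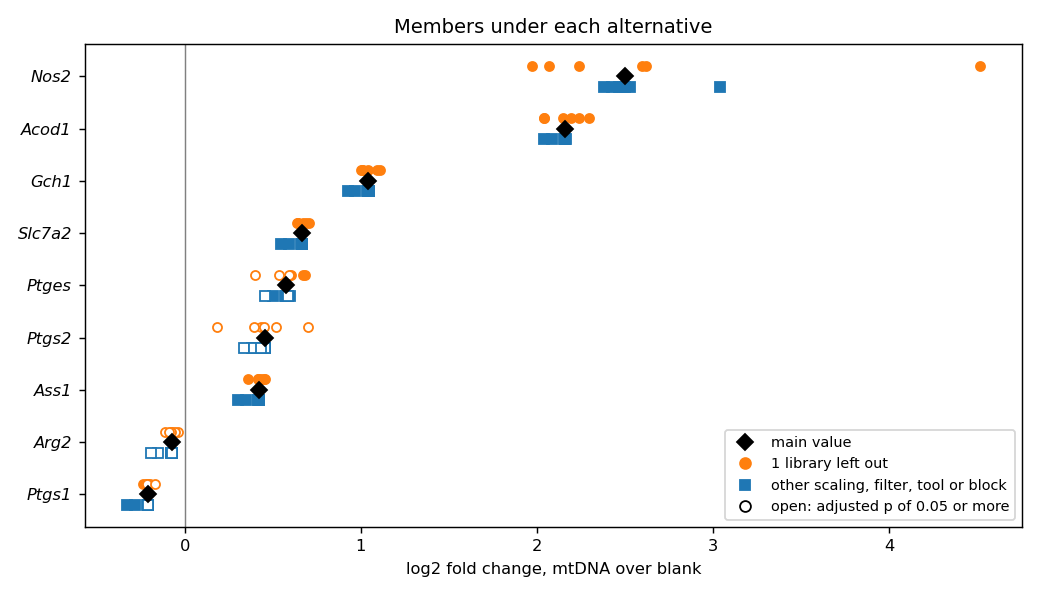
Log2 fold change of mtDNA over blank under each alternative, with the reported value as a diamond and open symbols where adjusted p is 0.05 or more. Acod1 spans 2.04 to 2.30, Gch1 0.93 to 1.11, Slc7a2 0.55 to 0.71 and Ass1 0.30 to 0.46, while Nos2 reaches 4.51 without blank 3.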

How the data were processed

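Poly(A) RNA of 3 mtDNA and 3 blank libraries was prepared with a directional kit and read from a single end over 75 bases, per the labels' protocols. The authors deposited raw read counts per gene. The submitters' processing notes name FastQC, STAR 2.7.10a, DESeq2 and build GRCm39. The column names end as STAR's own gene count files do, per the file headers. The annotation and the strand setting are not named in the labels, notes or headers. Of 55359 rows 34210 had no reads. Gene symbols came with the reference tables and matched 52083 rows.

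From the counts, genes were filtered with filterByExpr, leaving 11190, scaled by TMM and tested with the quasi-likelihood test of edgeR 4.0.16 (R 4.3.3), mtDNA over blank, with p-values adjusted by Benjamini-Hochberg across the 11190 genes and calls made under 0.05. The alternatives were other scalings and filters, DESeq2 1.42.0, limma-voom (limma 3.58.1), a block, and leaving out each library. The fitting code was tested on simulated data. RPKM used exon lengths, and read-length windows of 75 bases used transcripts, of GENCODE M21. A count of 0 was given a limit of 3 counts, which covers counting error only.

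The genes and lists (arginine, prostanoid, itaconate and tricarboxylic acid cycle, regulators, cell type markers) were chosen with earlier results of these data known. From each list up to 5 genes past the threshold with the smallest p were named, and other genes are named from these lists for their role, after their values were seen. Of the remaining marker lists, 0 of 6 tested dendritic, 1 of 8 eosinophil, basophil or mast cell, 0 of 4 lymphocyte, 0 of 3 stromal and 0 of 2 erythroid or megakaryocyte genes were higher in mtDNA cells. The share over all tested genes was 11.9%. Some genes of these lists are not reported here by name.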

Additional observations from a re-analysis of the deposited data

How the results depend on the processing

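Of the 125 values of the 9 tested genes under the alternatives 114 had the same call and direction (13 of Nos2, which was tested only through its mtDNA libraries), 11 lost their call (5 of Ptges, 6 of Ptgs1) and 0 reversed. The 40 other named genes gave 454 values with the same call and 104 that lost it, and 0 reversed. Counts of lower genes moved most. Over all genes, library totals alone gave 861 higher and 2356 lower, upper-quartile factors 1504 lower and DESeq2 173 lower, and leaving out 1 library gave 410 to 522 lower. Ptgs1 was the lower gene of the 10, and the count was 0 in DESeq2, where 1 was lower at an unadjusted p under 0.05, and 0 to 1 on leaving out a library. For arginine genes, library totals alone gave 1 higher and 7 lower, upper-quartile factors 5 lower, DESeq2 1 lower and omissions 1 to 4 lower. For prostanoid genes the lower count was 1 with median-ratio factors, 5 with upper-quartile factors, 9 with library totals alone, 1 with no expression filter, 0 in DESeq2 (3 unadjusted), 4 with the block and 0 to 3 on omission. For itaconate and tricarboxylic acid cycle genes it was 8 with upper-quartile factors, 13 with library totals alone, 0 in DESeq2 (4 unadjusted) and 0 to 3 on omission. For regulators it was 4 with library totals alone and 1 in DESeq2. The cause of these shifts was not tested. The replicate block used neighbouring title numbers, whose deviations correlated by 0.0404 to 0.0449 across genes. That correlation covers all tested genes at once, so it cannot show whether the numbers paired the samples for some genes. With the block the SE of the log2 fold change was 0.0549 for Acod1, against 0.0971 in the main fit. For Gch1 it was 0.103 in both, and for Arg2 0.0894 against 0.0873. The block gave 1387 higher and 747 lower genes, and 6 and 1 of the 10. A filter of 1 CPM in all 6 libraries left no value for Nos2. Depth limits Nos2, Ptgs2 and Arg1.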
